A study of Mus musculus with 12 samples.

Results

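A set of adhesion genes from the IgLON, NCAM and Caspr families carried SLM2 peaks in wild-type mouse brain. The set holds 7 genes: the IgLON genes *Negr1*, *Ntm*, *Opcml* and *Lsamp*, the NCAM genes *Ncam1* and *Ncam2*, and *Cntnap2*, which encodes Caspr2. The IgLON gene *Iglon5* and the 6 other Caspr genes, with spans from 17.2 to 903 kb, are outside the set and held no peak. A peak was counted for a gene where its centre lay within the annotated mm10 span of the gene, on the strand of the gene. In whole brain the 7 genes held 85 of 2057 peaks (4.13%, exact 95% interval 3.31 to 5.08), and in hippocampus they held 3 of 178 (1.69%, 0.349 to 4.85). No peak lay on the opposite strand of any of the 7 spans, and no other annotated gene on the same strand held the centre of any of these peaks.

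RNA bound to SLM2, the STAR-family protein encoded by *Khdrbs3*, was recovered by enhanced UV cross-linking and immunoprecipitation (eCLIP) and compared with size-matched input RNA. All mice were 30 days old and wild type (WT) in the groups described here, which are whole brain and hippocampus with 2 eCLIP and 2 input libraries each. A whole-brain lysate came from a single brain, whereas hippocampi were pooled for a lysate, and frozen tissue powder was irradiated in 3 exposures of 400 mJ/cm2. The *Slm2* KO libraries of hippocampus were not analysed here. Deduplicated reads numbered 11633337 and 16437829 in the eCLIP libraries of whole brain and 2931745 and 4358717 in those of hippocampus, with 8713111 and 13679158 in the inputs of the former and 452873 and 461577 in those of the latter, so tissue and depth cannot be told apart in any comparison between the lists. Each tissue has 1 list merged over its replicates, and every listed peak reaches 2 both in log2 fold change of eCLIP over input and in −log10 IDR (irreproducible discovery rate). A peak therefore has 1 value and no spread between replicates, no test between groups was possible, and exact intervals beside shares speak of counting error alone. The lists hold no level of RNA, and a gene without a peak may lack binding, RNA or reads.

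IgLON proteins are small immunoglobulin-domain proteins held to the neuronal surface by a GPI anchor, where they bind themselves and each other and act in neurite growth and synapse formation. NCAM proteins combine immunoglobulin and fibronectin domains, and NCAM1 is the main carrier of polysialic acid in brain. Caspr2 belongs to the neurexin superfamily and gathers voltage-gated potassium channels beside the nodes of myelinated axons together with contactin-2. SLM2 regulates alternative splicing and recognises the short AU-rich element UWAA, in which W is U or A.

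The peak of highest log2 fold change in each gene is shown to let the motif be read in its sequence. Sequences are RNA on the sense strand, 5′ to 3′, from the GRCm38 genome, which is the mm10 build, with every UUAA or UAAA in capitals (overlapping copies such as UUAAA count as 2 starts). In whole brain these peaks read as follows.

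*Negr1*, whole brain, chr3:156590791-156590861 (plus strand, log2 fold change 2.99): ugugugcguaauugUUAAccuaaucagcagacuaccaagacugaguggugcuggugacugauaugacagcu
*Ntm*, whole brain, chr9:29537965-29538071 (minus strand, log2 fold change 2.74): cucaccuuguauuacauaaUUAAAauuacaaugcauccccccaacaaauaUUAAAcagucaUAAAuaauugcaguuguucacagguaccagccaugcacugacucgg
*Opcml*, whole brain, chr9:28637446-28637601 (plus strand, log2 fold change 3.42): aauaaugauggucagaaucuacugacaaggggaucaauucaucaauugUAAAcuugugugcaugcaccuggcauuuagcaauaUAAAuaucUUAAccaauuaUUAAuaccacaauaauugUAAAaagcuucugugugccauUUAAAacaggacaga
*Lsamp*, whole brain, chr16:42056621-42056722 (plus strand, log2 fold change 2.61): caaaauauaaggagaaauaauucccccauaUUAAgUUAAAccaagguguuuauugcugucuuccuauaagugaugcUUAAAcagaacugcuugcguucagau
*Ncam1*, whole brain, chr9:49797921-49798002 (minus strand, log2 fold change 3.35): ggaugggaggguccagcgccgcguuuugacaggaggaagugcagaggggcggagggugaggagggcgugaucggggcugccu
*Ncam2*, whole brain, chr16:81412180-81412247 (plus strand, log2 fold change 3.97): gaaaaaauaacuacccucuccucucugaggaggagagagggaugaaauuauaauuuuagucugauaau
*Cntnap2*, whole brain, chr6:45076295-45076469 (plus strand, log2 fold change 3.92): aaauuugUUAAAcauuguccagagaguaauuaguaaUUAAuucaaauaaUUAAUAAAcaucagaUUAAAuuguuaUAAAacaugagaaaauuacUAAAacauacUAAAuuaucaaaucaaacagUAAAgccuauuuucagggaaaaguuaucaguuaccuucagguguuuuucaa

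The *Opcml* sequence held 7 starts of UWAA, those of *Ntm* and *Lsamp* held 5 each, and the *Cntnap2* sequence held 11 in 175 nt. The *Negr1* sequence held 1. The *Ncam1* and *Ncam2* sequences held none, and they differ in composition: *Ncam1* is GC-rich, whereas the *Ncam2* peak of 68 nt lies in an AU-rich stretch with 5 starts of UWAA within 50 nt of its centre.

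All 7 genes held a whole-brain peak, and 2 of them, *Lsamp* and *Cntnap2*, also held a hippocampal peak. Among all protein-coding genes of the annotation 1.92% held a peak in whole brain and 0.378% in hippocampus. The members are long, and among protein-coding genes at least as long as the shortest member the shares were 31.1% (180 of 578) and 7.96% (46 of 578). Since the 7 genes were chosen with earlier results of these data known, these shares are background and no test of the set. Peaks were unevenly spread: *Cntnap2* held 30 and *Ncam2* 25 of the 85 whole-brain peaks, *Opcml* 14, *Negr1* and *Ntm* 5 each, *Lsamp* 4 and *Ncam1* 2.

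The map of peaks along the genes shows where they lie.

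**Figure D1:**
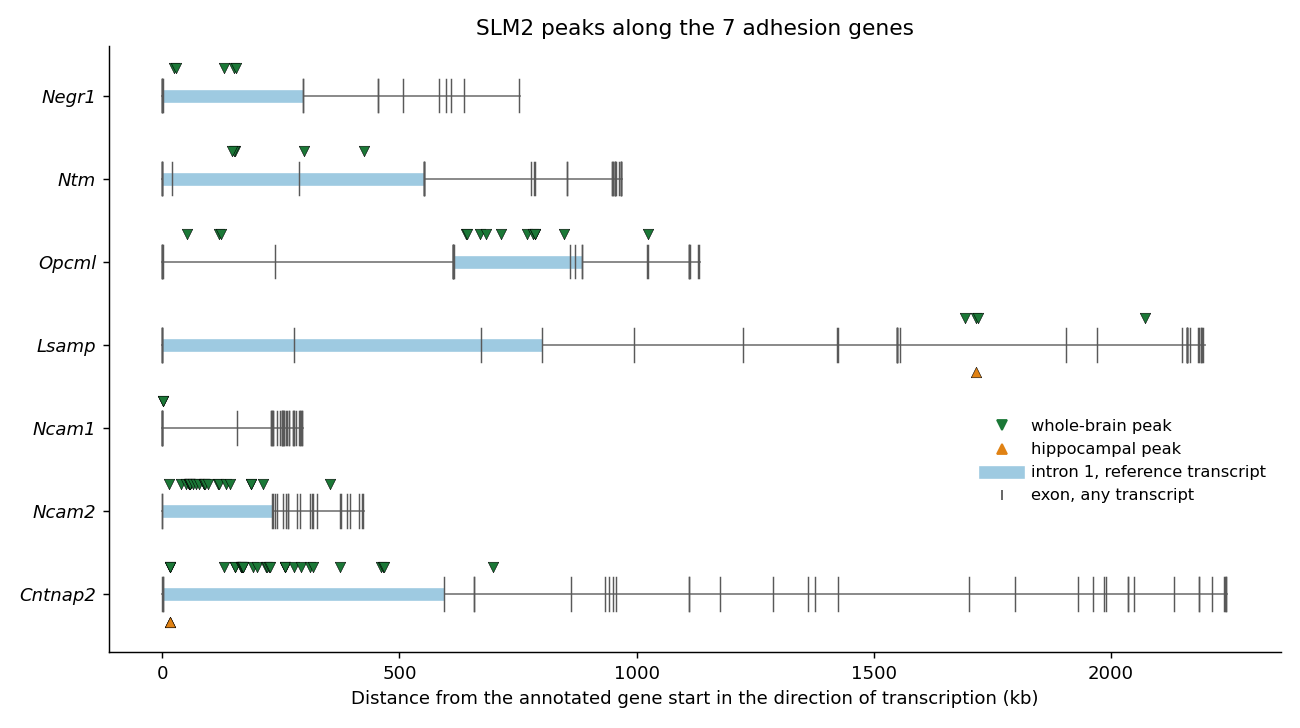
Peaks along the 7 genes, drawn to 1 scale. The x axis gives the distance from the annotated gene start in the direction of transcription (kb), grey ticks are exons of any transcript, blue bars are intron 1 of the reference transcript, and triangles mark peak centres in whole brain (above the line) and hippocampus (below). All peaks of *Negr1* and *Ntm* and all but 1 each of *Ncam2* and *Cntnap2* lie over the blue bar, those of *Lsamp* lie between 1693 and 2072 kb from the start, and both *Ncam1* peaks lie at the gene start.

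Among the IgLON genes, *Opcml*, named for its product's discovery as an opioid-binding protein, held the most peaks, at 1.23 per 100 kb of its span of 1134.6 kb (chr9:27790775-28925410, plus strand). They ranged from 53.5 to 1025 kb from the gene start. Of the 14 peaks, 10 lay in intron 1 of the reference transcript (the protein-coding transcript with the longest coding sequence), which takes 23.9% of the span. That transcript starts 613 kb downstream of the gene start, and 3 peaks lay upstream of it in intron 1 of longer coding transcripts, while 1 lay in intron 3. The strongest, at chr9:28637446-28637601, had a log2 fold change of 3.42 and a −log10 p of 5.98, and the weakest stood at 2.01. The peak at chr9:28815954-28816116 in intron 3, with a log2 fold change of 2.14, was the only member peak within 500 nt of an exon: its centre lay 418 nt downstream of an exon of a retained-intron transcript and 2623 nt from the nearest exon of a protein-coding transcript.

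*Ntm*, which encodes neurotrimin, lies beside *Opcml* on the opposite strand of chromosome 9 (chr9:28994750-29963141, minus strand), the 2 genes ending 69.3 kb apart. Its 5 peaks all lay in intron 1, which covers 551 kb or 56.9% of the span, at 148, 151, 154, 299 and 425 kb from the gene start. Their log2 fold changes were 2.52, 2.33, 2.56, 2.60 and 2.74 in that order, a narrow range. *Ntm* thus held 0.516 peaks per 100 kb, fewer than its neighbour.

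*Negr1*, an IgLON gene linked to body weight and neurite growth, also held 5 peaks (chr3:156561794-157316445, plus strand), all in its intron 1 of 297 kb. They stood at 24.9, 29.0, 130, 152 and 155 kb from the start, in the first 20.5% of the span, with log2 fold changes of 2.00, 2.99, 2.34, 2.24 and 2.20. The strongest, at chr3:156590791-156590861, stood apart from the other 4, and the weakest lay at the threshold of the list.

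*Lsamp*, which encodes the limbic system-associated membrane protein, differed from the other IgLON genes in position. It spans 2197.3 kb (chr16:39984361-42181679, plus strand) and held 4 whole-brain peaks, 0.182 per 100 kb, none of them in its intron 1 of 801 kb. Of the 4, 3 lay in intron 3 at 1693, 1716 and 1720 kb from the start, where a shorter coding transcript has its own intron 1, and the strongest (log2 fold change 2.61) lay in intron 5 at 2072 kb, or 94.3% of the span. The log2 fold changes of the 3 in intron 3 were 2.35, 2.59 and 2.28. The hippocampal peak of *Lsamp* lay among them and is described with the tissues.

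The 2 NCAM genes differed in number, place and composition of their peaks. *Ncam2* (chr16:81200697-81626828, plus strand) held 25 peaks in 426.1 kb, which is 5.87 per 100 kb, the highest density of the set and rank 5 among the 578 long genes. Of these, 24 lay in intron 1, which takes 54.4% of the span, and 1 in intron 12, 354 kb from the start. They were crowded: 19 fell between 39.8 and 135 kb from the start, and 7 between 51.1 and 59.0 kb. The smallest gap between neighbours was 63 nt and the median gap 5.84 kb, and 14 of the 25 had another peak within 500 nt.

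*Ncam2* also held the strongest member peak, at chr16:81412180-81412247 in intron 1, with a log2 fold change of 3.97 (rank 45 of 2057) and a −log10 p of 5.40. The other *Ncam2* peaks went down to 2.12, and the median of the 25 was 2.55, beside 2.56 over the whole list.

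*Ncam1* (chr9:49502136-49798925, minus strand), the shortest gene of the set at 296.8 kb, held 2 peaks. Both lay near the gene start, at 0.963 and 1.77 kb, in intron 1 of 5 transcripts, with the next exon 155 kb downstream, while the reference transcript begins 230 kb downstream of the gene start. Their centres were 716 and 1522 nt from the nearest exon. The peak nearer the start, at chr9:49797921-49798002, had a log2 fold change of 3.35 and a −log10 p of 3.13, and the other, at chr9:49797114-49797197, 2.50 and 2.91. The windows around both centres held 33% and 31% A and U, against a mean of 65.9% over the 85 member peaks, and all other member peaks were at 45% or above. A G-rich element, GGWGG (GGAGG or GGUGG), started 5 times around the centre nearer the start and 1 time around the other. It was found at 16 of the 85 member centres (18.8%), beside 22.8% over the whole list, and the next highest counts were 4 and 3 starts at a pair of *Cntnap2* peaks, chr6:45228075-45228179 and chr6:45226991-45227072.

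*Cntnap2* (chr6:45059357-47304213, plus strand), one of the longest genes of the mouse genome at 2244.9 kb, held 30 peaks, or 1.34 per 100 kb. Every one lay within the first 697 kb, or 31.0% of the span, and 29 of 30 lay in intron 1, which takes 26.4% of the span. The remaining peak lay in intron 3. They fell into 21 groups when peaks within 500 nt of each other were joined, with up to 3 peaks in a group, and 15 of the 30 lay between 130 and 227 kb from the gene start. The log2 fold changes ran from 2.03 to 3.92 with a median of 2.72, and 7 of 30 reached 3.

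The strongest *Cntnap2* peak, at chr6:45076295-45076469 and 17.0 kb from the gene start, had a log2 fold change of 3.92 (rank 51 of 2057) and a −log10 p of 14.5, the highest −log10 p of the member peaks. The next 3 were at 3.78 (chr6:45319417-45319488), 3.71 (chr6:45520070-45520153) and 3.54 (chr6:45076264-45076293), the last of them directly beside the strongest. Strong peaks thus stood at 16.9, 260 and 461 kb from the gene start, with weaker ones between.

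The median log2 fold change of the member peaks was 2.54 (range 2.00 to 3.97), beside 2.56 (2.00 to 6.04) over the whole list. A log2 fold change of at least 3 was reached by 13 of 85 (15.3%, exact 95% interval 8.40 to 24.7), beside 22.6% of the whole list and 20.6% of the 1430 other peaks in protein-coding genes at least as long as *Ncam1*. These 13 were 7 in *Cntnap2*, 4 in *Ncam2*, 1 in *Ncam1* and 1 in *Opcml*. Over the 28 IgLON peaks the median was 2.37, and 1 of 28 reached 3.

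**Figure D2:**
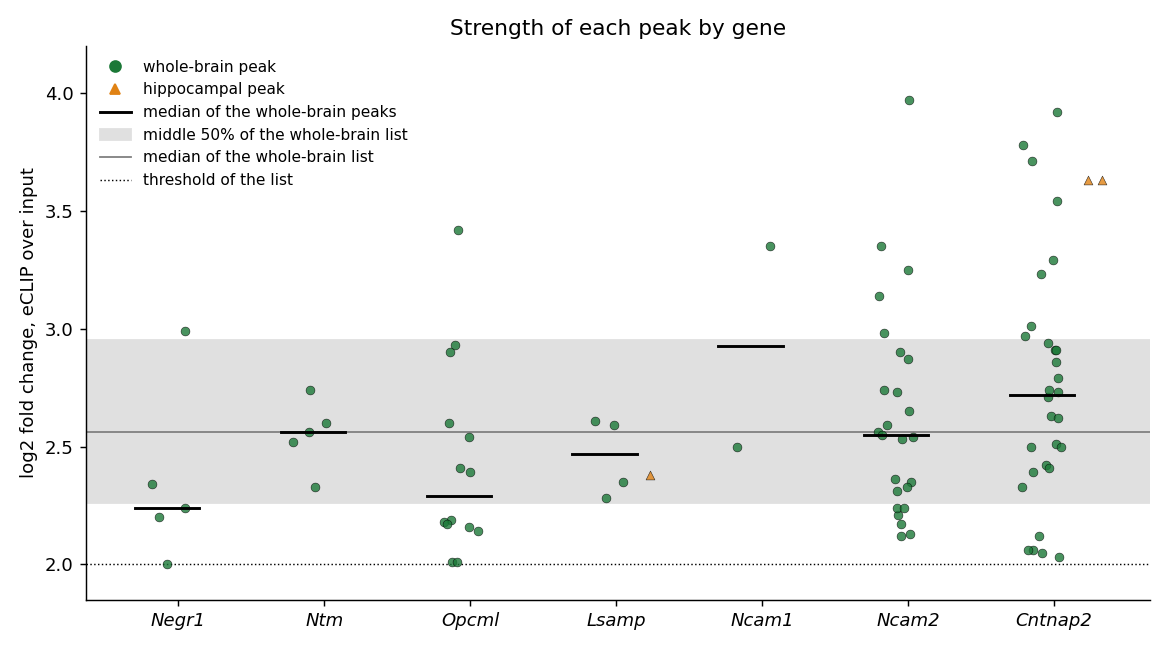
Strength of each peak. The y axis gives the authors' log2 fold change of eCLIP over input, each point is a peak (circles, whole brain; triangles, hippocampus), black bars are medians of the whole-brain peaks of a gene, the grey band holds the middle 50% of the whole-brain list and the dotted line is the threshold of the list at 2. *Cntnap2* and *Ncam2* reach 3.92 and 3.97, while *Negr1*, *Ntm* and *Lsamp* stay below 3.

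All 85 whole-brain member peaks (100%, 95.8 to 100) had their centre in an intron. The share was 94.7% over the whole list, where a peak outside any gene counted as not intronic. It was 97.5% over the other peaks in protein-coding genes at least as long as the shortest member. The member peaks lay deep in their introns. The median distance from a member centre to the nearest exon of its gene was 95833 nt, beside 24770 nt over the whole list and 40266 nt over the other peaks in protein-coding genes at least as long as the shortest member. That comparison sets a least length and does not match lengths. By gene the median ran from 1119 nt in *Ncam1* to 169471 nt in *Cntnap2*, with 58743 nt in *Ncam2* and 70086 nt in *Opcml*. Of the 85, 1 (1.18%, 0.0298 to 6.38) was within 500 nt of an exon, beside 9.04% of the whole list and 3.71% of the other peaks in the long genes.

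Intron 1 of the reference transcript held 73 of the 85 centres (85.9%, 76.6 to 92.5), beside 30.7% of the whole list and 28.8% of the other peaks in long genes. When any annotated transcript was allowed, 81 of 85 lay in the first intron of a protein-coding transcript. This wider count was made for the members alone, so the shares of the whole list and of the long genes cannot be set beside it. The first intron is itself long in these genes, with a median of 36.5% of the span over the 7 members, beside 16.4% over the 173 other long genes with a whole-brain peak. Intron 1 took 26.4% of the span and 96.7% of the peaks in *Cntnap2*, 54.4% and 96.0% in *Ncam2*, 23.9% and 71.4% in *Opcml*, and 36.5% and 0% in *Lsamp*. The peaks of *Cntnap2* and *Ncam2* make up most of the pooled share.

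UWAA occurred within 50 nt of the centre in 81 of 85 member peaks (95.3%, 88.4 to 98.7), beside 83.5% of the whole list and 88.2% of the other peaks in long genes. At least 2 starts were found in 70 of 85 (82.4%, 72.6 to 89.8), beside 73.9% of the whole list and 79.2% of the other peaks in long genes. The motif was also common away from the peaks, since 118 of 170 flanking windows from 450 to 550 nt away (69.4%) held it. The 4 member peaks without UWAA were 1 each in *Ntm* (chr9:29811615-29811697), *Lsamp* (chr16:41677283-41677371), *Ncam1* (chr9:49797921-49798002) and *Cntnap2* (chr6:45352316-45352384). All 4 had windows with at most 20% repeat-masked bases, and among member windows within that limit 90.2% held UWAA. This limit was applied to member peaks alone.

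In density, UWAA started at 4.11 of 100 positions at the member centres and at 1.96 in the flanks, beside 3.59 and 1.80 over the whole list. Over the other peaks in long genes the values were 3.87 and 1.88. Among the 85 member peaks, UWAA was denser at the centre than in the mean of both flanks in 62 and less dense in 18. These counts were 1374 and 486 among the 2057 peaks of the whole list. Among the 1430 other peaks in long genes they were 1015 and 309. By gene, the values at centre and flanks were 4.64 and 2.11 in *Cntnap2*, 4.33 and 2.54 in *Ncam2*, and 4.12 and 1.62 in *Opcml*. *Negr1* stood at 3.71 and 1.34 and *Ntm* at 2.89 and 0.515. The difference was small in *Lsamp*, with 2.58 and 2.06 over 4 peaks, and *Ncam1* had 0.515 at the centre and none in the flanks.

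**Figure D3:**
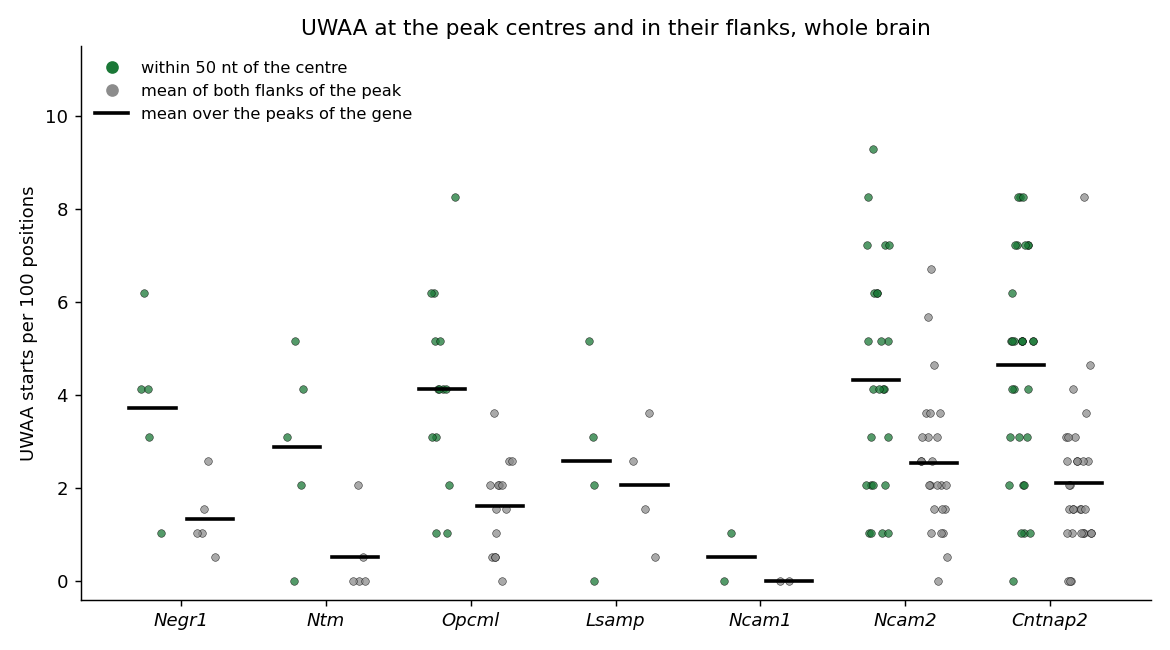
UWAA at whole-brain peaks by gene. The y axis gives starts of UWAA per 100 positions, green points are windows within 50 nt of the centre of each peak, grey points are the mean of both flanks from 450 to 550 nt away, and black bars are means over the peaks of a gene. Means at the centre lie above those of the flanks in all 7 genes, with 4.64 against 2.11 in *Cntnap2* and 2.58 against 2.06 in *Lsamp*, and single peaks overlap with flanks in every gene.

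Around the centres, the density of the 85 member peaks was highest, at 4.71 starts per 100 positions, in the 25 nt just upstream of the centre. It stayed above 3 from 150 nt upstream to 25 nt downstream, and dropped to 2.82 beyond 25 nt downstream. The other whole-brain peaks had their highest value, 4.23, from 50 to 25 nt upstream.

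**Figure D4:**
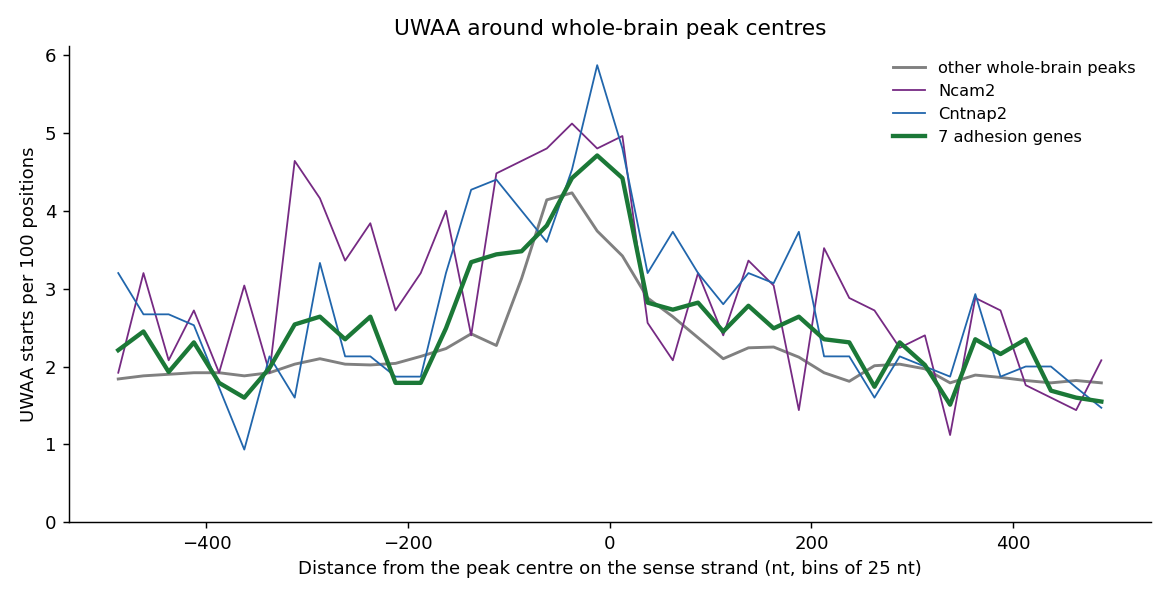
UWAA around whole-brain peak centres. The x axis gives the distance from the centre on the sense strand (nt, bins of 25 nt) and the y axis starts of UWAA per 100 positions, for the 85 member peaks, the peaks of *Cntnap2* (30) and *Ncam2* (25), and all other whole-brain peaks. The member line peaks at 4.71 just upstream of the centre and the line of the other peaks at 4.23, and the lines of single genes are uneven because each bin rests on few peaks.

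Other elements gave values for scale. The longer element, UUUAAAA in one form and UUAAAAA in the other, was present at 16 of 85 member centres (18.8%), beside 18.7% of the whole list. Its mean was 0.300 starts per 100 positions at the centres against 0.169 in the flanks, beside 0.296 and 0.121 over the whole list. By peak it was denser at the centre in 14 and less dense in 15, beside 369 and 256 of the 2057 listed peaks. The reversed tetramers AAWU (AAAU or AAUU), chosen after the UWAA values were seen because they have the same composition, were at 3.46 at the centres and 2.34 in the flanks. Over the whole list these tetramers were at 2.92 and 1.90. The mean share of A and U was 65.9% at the member centres and 63.3% in the flanks, beside 63.2% and 60.6% over the whole list. Repeat-masked bases made up over 20% of the window in 44 of 85 members (51.8%), as in 50.4% of the whole list, and the density in member windows with fewer masked bases is given with the processing alternatives. No member peak held a run of 10 nt or more identical to the sequencing adaptor. Across the 85 peaks, which share libraries and in part the same introns, the number of UWAA at the centre bore little relation to the log2 fold change (Spearman's rho 0.0842, Pearson's r 0.102, a description without a test).

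In hippocampus *Cntnap2* held 2 peaks that follow one another, chr6:45076150-45076342 and chr6:45076344-45076423. Both had a log2 fold change of 3.63 (rank 13 of 178) and a −log10 p of 3.72, and their −log10 IDR was 2.34 and 3.23. They lay on the strongest whole-brain site of the gene: the second lies wholly within the whole-brain peak chr6:45076295-45076469, sharing its 80 nt, and the first shares 48 nt with it and 30 nt with the peak beside it. In whole brain the site stood at 3.92 and 3.54. Of the member peaks, 2 of 3 hippocampal ones (66.7%) and 2 of 85 whole-brain ones (2.35%) overlapped a peak of the other tissue by at least 1 nt, beside 55 of 178 (30.9%) and 59 of 2057 (2.87%) over the whole lists. All of these member overlaps were at this *Cntnap2* site, so both member shares rest on 1 locus.

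The hippocampal peak of *Lsamp*, chr16:41700565-41700713 in intron 3, had a log2 fold change of 2.38 and a −log10 p of 1.09, the lowest −log10 p among the member peaks. Such values are common in that list: its median −log10 p was 1.75, and 95 of 178 peaks were below 2. The lowest value in the whole-brain list was 2.82. The hippocampal *Lsamp* peak overlapped no whole-brain peak, and the nearest, chr16:41700102-41700146, ended 418 nt away. Its sequence is shown because it holds repeats beside the motif.

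*Lsamp*, hippocampus, chr16:41700565-41700713 (plus strand, log2 fold change 2.38): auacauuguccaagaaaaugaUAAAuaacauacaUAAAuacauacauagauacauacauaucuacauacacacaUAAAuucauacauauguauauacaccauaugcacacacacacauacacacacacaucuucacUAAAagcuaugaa

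The *Lsamp* sequence was 75.8% repeat-masked, with 4 starts of UWAA. The motif was no denser at the centre of this peak than in its flanks, at 2.06 starts per 100 positions in both. *Negr1*, *Ntm*, *Opcml*, *Ncam1* and *Ncam2* held no hippocampal peak, so that 0 of 178 came from the NCAM genes, where counting error allows up to 2.05%.

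Counts were also read against gene length. Per 100 kb of span the members held 1.06 whole-brain peaks in all, beside 0.444 over the 571 other long protein-coding genes, and the median was 0.674 over the 7 members and 0.341 over the 173 others that held a peak. All 7 members hold a peak and were chosen with earlier results of these data known. Of the 571 others, 398 hold none, so the pooled densities do not compare like sets. In number of peaks *Cntnap2* ranked 14 and *Ncam2* 17 among the 578 long genes, *Opcml* 29, *Negr1* and *Ntm* 53, *Lsamp* 58 and *Ncam1* 87. Per 100 kb *Ncam2* ranked 5, *Cntnap2* 37, *Opcml* 41 and *Lsamp* 151.

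**Figure D5:**
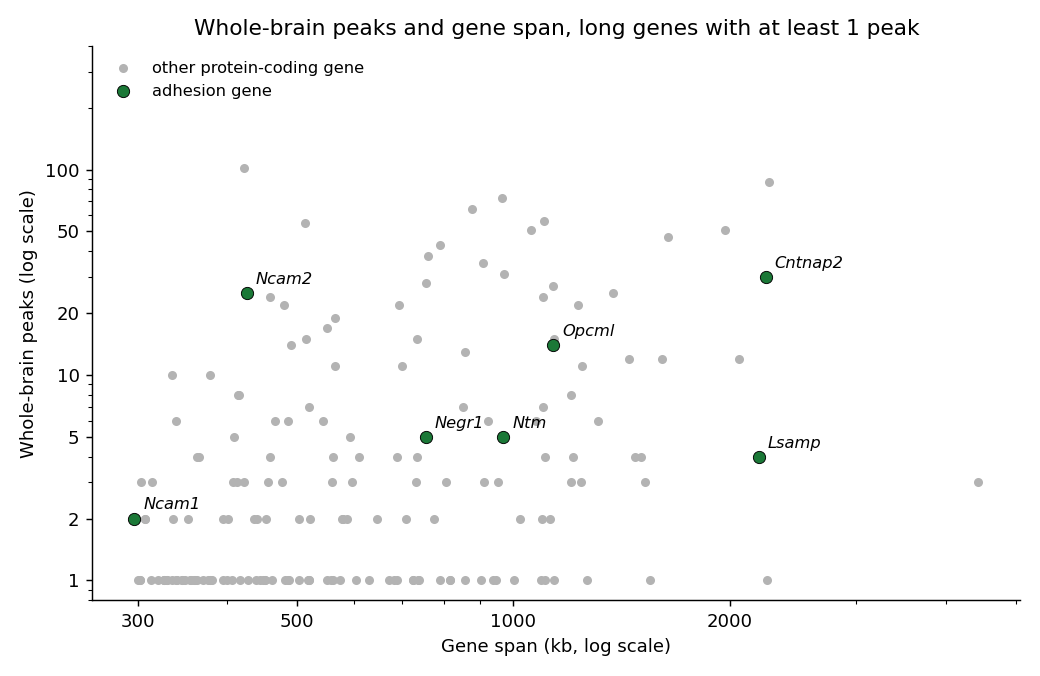
Whole-brain peaks and gene span. The x axis gives the span (kb, log scale) and the y axis the number of whole-brain peaks (log scale) of the 180 protein-coding genes with at least 1 peak and a span of at least 296.8 kb, with the 7 adhesion genes in green and the others in grey; the 398 long genes without a peak are not drawn. *Ncam2* holds 25 peaks in 426.1 kb, while *Lsamp*, of nearly the span of *Cntnap2*, holds 4 against 30.

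The long genes whose peak densities in both tissues came closest to those of *Cntnap2* were *Rims1*, with 7 whole-brain peaks in 520 kb, *Sgcz*, with 15 in 1139 kb, and *Xkr4*, with 6 in 466 kb, none with a hippocampal peak. Likeness was the distance between the 2 densities per 100 kb, and it was 0.0897, 0.0912 and 0.101.

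The relatives and partners of the members held peaks unevenly. Of 47 related genes, 14 held a whole-brain peak and 2 a hippocampal one. Among the 15 that are at least as long as *Ncam1*, 7 did, beside 31.1% of all protein-coding genes of that length. None of the 6 other Caspr genes and not the remaining IgLON gene *Iglon5* held a peak in either tissue. Of these, *Iglon5* (17.2 kb), *Cntnap1* (20.2 kb) and *Cntnap3* (168 kb) are shorter than any member, while the rest span 313 to 903 kb. A whole-brain peak lay in only 1.92% of all protein-coding genes, so absence from a short gene says little. Among the 6 contactins, GPI-anchored immunoglobulin proteins that partner Caspr proteins, *Cntn5* held 3, *Cntn4* 2 and *Cntn1* 1 whole-brain peaks. *Cntn2*, the partner of Caspr2 at the axon, held none in its 33.8 kb. Of the 4 L1-family genes, *Nrcam* held 2 peaks, up to a log2 fold change of 4.65, and *Nfasc* 1.

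Other immunoglobulin adhesion genes held 34 whole-brain peaks, 28 of them in *Mdga2*, which encodes a GPI-anchored protein that binds neuroligins, and the rest in *Dscam* (2), *Alcam* (2), *Dscaml1* (1) and *Kirrel3* (1). Of the 8 partners and enzymes of NCAM, 1 held a peak, *Fgfr1*, a receptor for fibroblast growth factors that NCAM binds, with a log2 fold change of 3.66. Neither sialyltransferase gene that makes polysialic acid (74.6 and 79.9 kb) held one. Of the 9 partners of Caspr2, the scaffold gene *Dlg2* held 51 whole-brain and 5 hippocampal peaks, *Dlg1* held 3 and *Lgi1* 1 in whole brain, and *Dlg4* held 1 in hippocampus. The genes of enzymes that shed IgLON proteins from the surface, *Adam10* (101 kb), *Mmp3* (10.2 kb) and *Mmp9* (15.1 kb), held none.

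Among marker genes of cell types, peaks lay in 3 of 4 of neurons in whole brain (*Rbfox3*, *Syt1* and *Snap25*) and in 2 in hippocampus, in 1 of 4 of oligodendrocytes (*Mbp*, whole brain) and in none of 4 each of astrocytes and microglia. The lists differ in gene length: *Rbfox3* spans 422 kb and *Syt1* 513 kb, whereas no glial marker exceeds the 168 kb of *Cx3cr1*, and peaks lay in 31.1% of genes at least as long as *Ncam1* but 1.92% of all protein-coding genes. The counts therefore do not tell cell types apart.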

How the data were processed

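SLM2 eCLIP and size-matched input libraries of WT whole brain and hippocampus were grouped by their labels. Per the labels and methods, the authors used cutadapt 3.4 for trimming, STAR 2.7.9 for mapping to mm10 and UMI-tools 1.1.1 for deduplication. CLIPper peaks were scored against input, and IDR joined both replicates of each tissue into 1 list. The deposited log2 fold changes, −log10 p and −log10 IDR (a reproducibility score) are the authors' values per peak; the lists have no header, and the meaning of the columns was taken from the authors' supplementary column names. Read depth per library was taken from the authors' sequencing statistics.

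BED starts were raised by 1, and peak centres were matched by strand to GENCODE vM21 genes (protein-coding genes number 21951). Features outside the 7 genes used the longest protein-coding gene that held the centre. Introns were numbered in the protein-coding transcript with the longest coding sequence. Motif starts were counted on the sense strand of GRCm38 within 50 nt of the centre and, as flanks, 450 to 550 nt to each side, masked windows included. Shares carry exact (Clopper-Pearson) 95% binomial intervals. No test was made, since each tissue has 1 merged list. The 7 genes, related-gene and marker lists were chosen with earlier results of these data known. Peaks named singly are those of highest log2 fold change per gene and tissue, hippocampal peaks, peaks within 500 nt of an exon and peaks shared by the tissues; other single peaks were chosen after their values were seen. The sequence of 1 peak is not reported here. Counting procedures were tested on simulated data. Alternatives covered thresholds, windows, masking, overlap rules and transcripts. The *Slm2* KO libraries were left out. Software was pysam 0.24.0, scipy 1.17.1, numpy 2.4.6, pandas 2.3.3 and matplotlib 3.10.9 under Python 3.11.15.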

Additional observations from a re-analysis of the deposited data

How the results depend on the processing

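The counts of peaks rest on the thresholds of the lists. With a log2 fold change of at least 3, whole brain kept 13 member peaks in 4 genes and hippocampus 1 gene with a peak, *Cntnap2*. With a −log10 IDR of at least 3, whole brain kept 9 peaks in 3 genes (*Opcml*, *Ncam2* and *Cntnap2*) and hippocampus 1 peak in 1 gene. With a −log10 p of at least 2, whole brain kept all 85 and hippocampus lost its *Lsamp* peak, leaving 1 gene. When at least 50% of a hippocampal peak had to be shared, 1 rather than 2 overlapped whole brain. UWAA was found within 25 nt of the centre in 84.7% of the member peaks. Its density at the centre was 3.68 per 100 positions within 100 nt and 3.65 in windows with at most 20% masked bases, and in the flanks it was 1.63 with that limit and 2.34 for peaks with a log2 fold change of at least 3. At the centre, mean density was above that of the flanks under every alternative that gave both values; none of the 3 hippocampal centre windows had at most 20% masked bases, so that alternative gave a value there for the flanks alone (1.55). In all, 100 of 132 alternative values stayed within 1.5 times the count or within the counting interval, and 32 did not. Many of the 100 could not have moved. Genes without a hippocampal peak cannot lose one at a stricter threshold. No whole-brain member peak had a −log10 p below 2.88, and no member peak matched an adaptor. The tally is therefore no measure of robustness. Leaving out a replicate could not be run, since the lists hold no values per replicate. No paired analysis was possible because the lists are merged and no result comes from a test. What depth limits was not tested; the hippocampal inputs held 452873 and 461577 reads.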
